A study of Rattus norvegicus with 16 samples.

Results

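A set of 10 genes of calcineurin, NFAT, MEF2 and GATA signalling was followed through the right ventricle of female rats: Rcan1, Ppp3ca, Ppp3cb, Nfatc3, Nfatc4, Mef2a, Mef2c, Mef2d, Gata4 and Zfpm2. They were taken by gene symbol, as 10 of the 32754 gene entries in the count tables, and all 10 had enough counts to be tested. Female Sprague Dawley rats aged 20 to 21 weeks were wild type (WT) or mutant for estrogen receptor alpha (ERalpha -/-, abbreviated KO). Each genotype was studied after a sham operation (SHAM) and after 10 weeks of pulmonary artery banding (PAB), a constriction that raises the pressure against which the right ventricle pumps. Messenger RNA from 10 mg of right ventricle was sequenced as stranded libraries, with 4 libraries in each of the 4 groups and 16 in all. Whether the replicates were separate animals is not stated, so the p-values reflect only the variation among these libraries, which may be technical. The nature of the mutation is not given in the sources used here.

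Calcineurin is a calcium- and calmodulin-dependent phosphatase. When cytosolic calcium stays raised, it removes phosphates from NFAT transcription factors, which then enter the nucleus and act with GATA4 and MEF2 factors on genes of cardiac growth, among them genes of the fetal heart. RCAN1 binds and inhibits calcineurin, and transcription from an internal start of its own gene is induced by NFAT, so Rcan1 mRNA is widely read as a measure of calcineurin activity. ZFPM2 (FOG2) binds GATA4 and restrains it, while class IIa histone deacetylases restrain MEF2 factors. Much of this pathway is controlled by phosphorylation, nuclear entry and calcium, none of which was measured here.

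Libraries held 22168110 to 34718633 counts. Levels are CPM, the counts divided by the TMM-scaled library size, and they are compared between libraries of 1 gene, not between genes, because transcript lengths were not used. Esr1, the gene of estrogen receptor alpha, had 70 to 139 counts in each WT library and 7 to 21 in each KO library. Cardiomyocyte markers (Myh6, Tnnt2, Tnni3, Actc1 and Ryr2) summed to between 24466 and 48275 CPM in every library. A set of 3 sham libraries, WT SHAM 2, WT SHAM 3 and KO SHAM 4, stood apart: Adipoq, the adipocyte hormone adiponectin, was at 11.1 to 45.6 CPM in them, at no more than 0.0461 CPM in the other 5 sham libraries and at 0 to 5.21 CPM in the 8 banded libraries. Plin1, Cidec and Lep were likewise higher in the 3 than in the other 5, without overlap. Fabp4, also listed as an adipocyte marker, was lower in the 3 (208 to 262 CPM, against 270 to 342 in the other 5). The 5 adipocyte markers together summed to 229 to 317 CPM in the 3, against 270 to 342 in the other 5, with overlap. Mesothelial markers summed to 48.4 to 91.8 CPM in those 3, against 7.48 to 25.2 in the other sham and 12.2 to 17.4 in the 8 banded libraries. Wt1, listed with the mesothelial markers, was at 8.22 to 13.0 CPM in the 3 and 7.28 to 16.9 in the other 5, with overlap. Smooth muscle and pericyte markers summed to 928 to 2983 CPM in the 3. They summed to 159 to 338 in the other sham and 145 to 292 in the banded libraries. Rgs5 of that list was at 41.4 to 55.7 CPM in the 3 and 42.3 to 60.2 in the other 5, with overlap. Cardiomyocyte markers summed to 24466 to 34393 CPM in the 3, below the 38950 to 48275 of the other 5 sham libraries, with 29207 to 45588 in the banded. Fibroblast markers (1060 to 1762 against 533 to 738 CPM) and macrophage markers (92.2 to 126 against 34.4 to 54.3 CPM) were higher in the 3 than in the other 5, without overlap. Results are therefore also given without those 3 libraries. In RNA from whole tissue, fewer cells of a type and less RNA per cell cannot be told apart.

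Banding changed 4 of the 10 genes when its effect was averaged over both genotypes. Rcan1 and Gata4 rose, and Zfpm2 and Mef2a fell. The call was a Benjamini-Hochberg adjusted p below 0.05 in edgeR's quasi-likelihood test, which 5.09% of the 13458 genes tested passed (3.24% higher and 1.85% lower). The 10 genes were chosen with earlier results of these data known, so such shares, here and below, do not test the set. The median log2 fold change of the 10 genes was 0.04, against -0.02 over all genes tested. The genes of the phosphatase itself, of the NFAT factors, and of Mef2c and Mef2d did not pass.

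**Figure D1:**
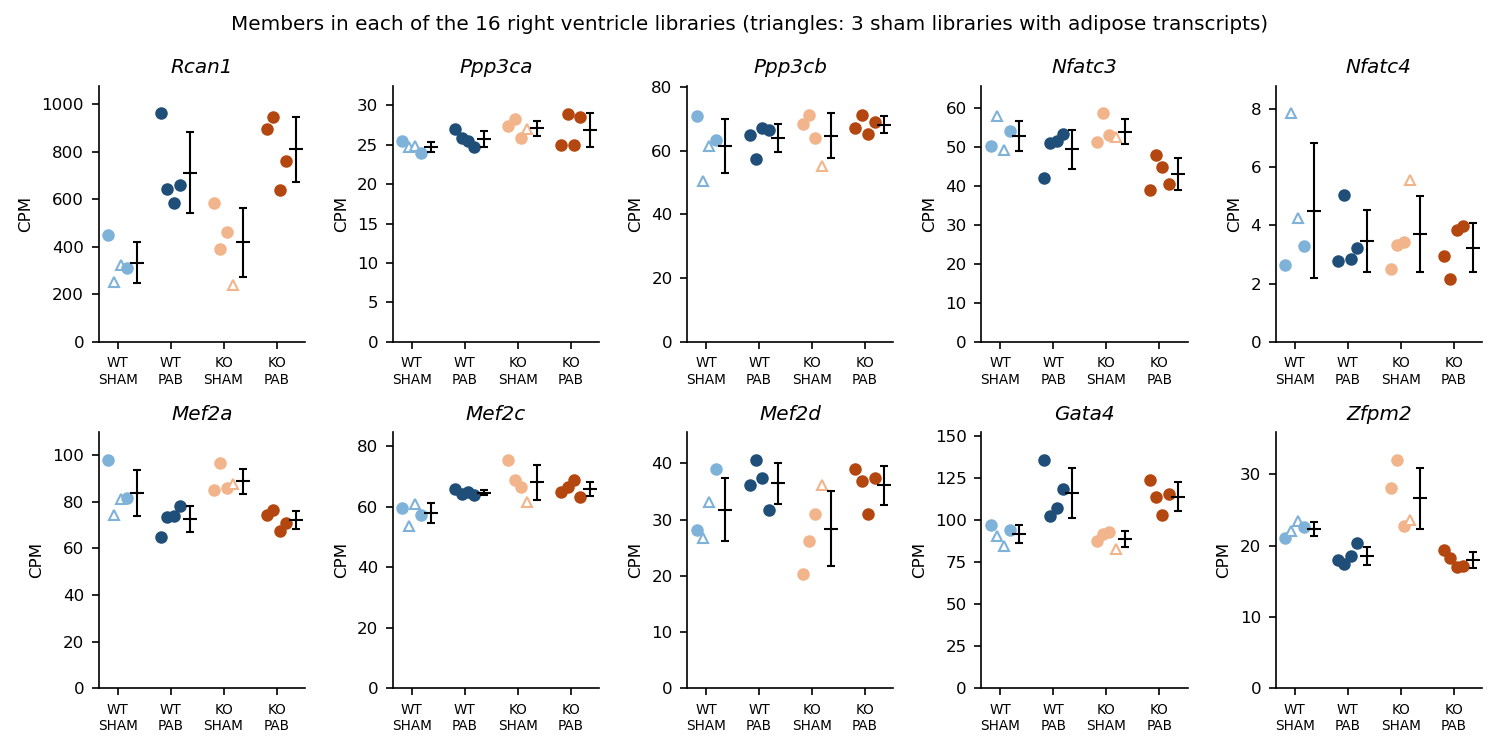
Level of each of the 10 genes in CPM (vertical axes, each starting at 0) in the 16 libraries, by group, with the mean and SD (n = 4) beside the points. Open triangles are the 3 sham libraries with adipose transcripts. Rcan1 and Gata4 sit higher and Zfpm2 lower in both banded groups than in the sham group of the same genotype, with no overlap.

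Rcan1, the calcineurin inhibitor, had the largest rise of the 10 genes, 2.03-fold with banding averaged over genotypes. Its level was 451, 249.9, 323 and 309 CPM in WT SHAM libraries 1 to 4 and 961, 641, 584 and 659 CPM in WT PAB. In KO it was 584, 390.3, 460.3 and 238 CPM after sham surgery and 896, 944, 640.3 and 760.4 CPM after banding. Every banded library was above every sham library of its genotype, and the highest sham library, KO SHAM 1, lay just below the lowest banded library, WT PAB 3. Mean levels after sham surgery and after banding were 333 ± 84.7 and 711 ± 169 CPM (SD, n = 4) in WT, and 418 ± 144 and 810 ± 137 CPM in KO.

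Averaged over genotypes, the log2 fold change of Rcan1 with banding was 1.02 (SE 0.18, 95% interval 0.64 to 1.41, adjusted p = 0.00630 by edgeR). It was called in 24 of 24 alternative analyses, with values between 0.78 and 1.13. Within WT the log2 fold change was 1.09 (SE 0.25, adjusted p = 0.197) and within KO it was 0.95 (SE 0.25, adjusted p = 0.0843), neither of which passed. Rcan1 was lower in the 3 sham libraries with adipose transcripts (270.2 ± 46.0 CPM, SD, n = 3) than in the other 5 (439 ± 101 CPM, n = 5), with overlap, and without them the averaged log2 fold change was 0.84 (SE 0.16, adjusted p = 0.0199). A fit with an adipocyte and mesothelial score as covariate was among the 24 alternatives, and Rcan1 was called in it too. The part of those transcripts in the size of the effect was not tested beyond these fits.

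Since Rcan1 is read through NFAT, its promoter is shown where a reference entry was at hand. RefSeq promoter entries (build GRCr8) were matched for 5 of the 10 genes: Rcan1, Ppp3ca, Ppp3cb, Mef2a and Mef2d. The 250 bases before the listed Rcan1 start, chr11:45118237-45118486 on the minus strand, are given 5′ to 3′, with capitals marking the NFAT core GGAAA on the shown strand and its reverse complement where the core lies on the other strand.
Rcan1: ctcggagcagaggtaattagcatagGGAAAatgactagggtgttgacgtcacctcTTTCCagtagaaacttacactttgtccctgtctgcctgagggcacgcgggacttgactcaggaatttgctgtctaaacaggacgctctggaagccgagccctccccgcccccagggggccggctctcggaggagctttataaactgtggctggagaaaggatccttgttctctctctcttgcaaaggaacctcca
The listed start lies inside the annotated gene, and the 2 cores lie at -225 to -221 and at -195 to -191 from it. A core on either strand was present in 56.9% of 33469 promoters of this length, and 22.9% held at least 2. No GATA motif (the letters GATA with A or T before and A or G after, on either strand, present in 27.0% of promoters) and no MEF2 motif was found in this window. A match is a description of letters and not a measured binding site, and the counts are per gene, so they do not tell which start the transcripts came from.

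Ppp3ca and Ppp3cb encode the alpha and beta catalytic subunits of calcineurin, and their mRNA did not pass the test. Ppp3ca had a coefficient of variation of 2.51 to 7.99% within groups, and Ppp3cb 3.78 to 13.7%. In WT, Ppp3ca was at 24.7 ± 0.621 CPM (SD, n = 4) after sham surgery and 25.7 ± 0.977 after banding. In KO it was at 27.1 ± 0.967 and 26.8 ± 2.14. The averaged log2 fold change was 0.02 (95% interval -0.08 to 0.12, adjusted p = 0.830 by edgeR), an interval that holds no change and spans at most 0.12 on the log2 scale on either side.

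In WT, Ppp3cb ranged from 50.5 to 71.1 CPM after sham surgery and from 57.5 to 67.1 after banding, and in KO from 55.2 to 71.1 and from 65.2 to 71.3, so the groups overlapped. Its averaged log2 fold change was 0.07 (95% interval -0.09 to 0.22, adjusted p = 0.629). It was lower in the 3 sham libraries with adipose transcripts (55.8 ± 5.53 CPM) than in the other 5 (67.6 ± 3.71 CPM), without overlap, and without them its value was -0.03.

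Nfatc3 and Nfatc4 encode calcineurin-dependent NFAT factors. Nfatc3 was at 50.1, 57.8, 49.1 and 53.9 CPM in WT SHAM and at 41.9, 50.9, 51.4 and 53.2 CPM in WT PAB, which overlapped. In KO it was at 51.3, 58.5, 53.0 and 52.5 CPM after sham surgery and at 38.9, 47.9, 44.7 and 40.3 CPM after banding, so every banded KO library lay below every sham KO library. Its averaged log2 fold change was -0.21 (SE 0.06, 95% interval -0.35 to -0.07, adjusted p = 0.0703 by edgeR), which missed the threshold. It passed with DESeq2 (adjusted p = 0.0297), which called 5 of the 10 genes and 9.94% of all genes, and with the replicate number as a block (0.0469). Within WT its log2 fold change was -0.10 and within KO it was -0.33 (adjusted p = 0.102).

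Nfatc4 had the widest spread of the 10 genes, with a coefficient of variation of 26.1 to 51.6% within groups. In WT it ranged from 2.63 to 7.84 CPM after sham surgery and from 2.77 to 5.04 after banding, and in KO from 2.51 to 5.57 and from 2.17 to 3.97. Its 3 highest sham values were in the libraries with adipose transcripts (5.89 ± 1.81 CPM against 3.04 ± 0.437 in the other 5, without overlap). The averaged log2 fold change of -0.29 (95% interval -0.81 to 0.23, adjusted p = 0.493) became 0.15 (adjusted p = 0.672) without those libraries, so its direction rests on them.

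MEF2 factors bind AT-rich sites in muscle genes, and among the 3 genes Mef2a fell. Mef2a was at 97.9, 74.2, 81.1 and 81.8 CPM in WT SHAM and at 64.7, 73.3, 74.1 and 78.1 CPM in WT PAB, with overlap. In KO it was at 84.9, 96.5, 86.0 and 87.6 CPM after sham surgery and at 74.3, 76.4, 67.6 and 70.9 CPM after banding, with no overlap. Its averaged log2 fold change was -0.25 (SE 0.06, 95% interval -0.39 to -0.11, adjusted p = 0.0342 by edgeR), a level 0.840 times that after sham surgery. The call was held in 11 of 24 alternatives, with adjusted p between 0.00418 and 0.0793. It was lost without any 1 of WT SHAM 1 or 3, WT PAB 1, 2 or 3, KO SHAM 2 or 3, or any KO PAB library, and without the filter on low counts (0.0570). The Mef2a call was also lost with the replicate block (0.0689). Without the 3 sham libraries with adipose transcripts its log2 fold change was -0.30 (adjusted p = 0.0269).

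The Mef2a promoter entry was the only 1 of the 5 matched with a MEF2 motif, which 2.96% of promoters held. Its 250 bases before the listed start, chr1:130392163-130392412 on the minus strand of GRCr8, are given 5′ to 3′ from RefSeq, with the motif in capitals.
Mef2a: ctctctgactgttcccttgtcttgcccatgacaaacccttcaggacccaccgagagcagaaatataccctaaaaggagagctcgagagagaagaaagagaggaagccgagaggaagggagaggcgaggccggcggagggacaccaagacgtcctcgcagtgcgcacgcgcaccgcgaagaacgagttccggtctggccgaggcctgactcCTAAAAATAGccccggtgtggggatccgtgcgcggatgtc
The motif lies at -40 to -31 from the listed start, which is inside the annotated gene, and it reads as a match on both strands and was counted once. Ppp3cb held 1 NFAT core in its window, and Ppp3ca and Mef2d held none of the motifs searched.

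Mef2c passed in no comparison, and its largest difference was between the sham groups. It was at 59.8, 53.8, 61.0 and 57.3 CPM in WT SHAM and 66.0, 64.2, 64.9 and 63.9 CPM in WT PAB. In KO it was at 75.5, 68.7, 66.5 and 61.5 CPM after sham surgery and 64.9, 66.7, 68.8 and 63.2 CPM after banding. WT SHAM thus lay below each of the other groups without overlap. None of these differences passed after adjustment: the log2 fold change with banding was 0.16 in WT (adjusted p = 0.410 by edgeR) and -0.05 in KO, and KO SHAM over WT SHAM was 0.23 (SE 0.07, unadjusted p = 0.00477, adjusted p = 0.996).

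In WT, Mef2d ranged from 26.7 to 39.0 CPM after sham surgery and from 31.8 to 40.6 after banding, and in KO from 20.3 to 36.1 and from 31.0 to 39.1, with overlap in each genotype. Its averaged log2 fold change was 0.27 (SE 0.11, 95% interval 0.03 to 0.52, adjusted p = 0.160), which did not pass.

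Gata4 and Zfpm2 moved in opposite directions. Gata4, a zinc finger factor of the cardiomyocyte, was at 97.0, 90.7, 84.7 and 94.4 CPM in WT SHAM and at 136, 103, 107 and 119 CPM in WT PAB. In KO it was at 87.4, 91.8, 93.3 and 82.6 CPM after sham surgery and at 124, 114, 103 and 116 CPM after banding. All 8 banded libraries were above all 8 sham libraries. The averaged log2 fold change was 0.35 (SE 0.07, 95% interval 0.21 to 0.49, adjusted p = 0.00894 by edgeR), a 1.28-fold rise called in 24 of 24 alternatives at values of 0.30 to 0.38. It was 0.34 in WT (adjusted p = 0.268) and 0.36 in KO (adjusted p = 0.0808, and 0.0356 without WT PAB 1), and 0.31 averaged (adjusted p = 0.0314) without the 3 sham libraries with adipose transcripts.

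Zfpm2, the GATA4 partner FOG2, was at 21.1, 22.1, 23.5 and 22.7 CPM in WT SHAM and at 18.0, 17.4, 18.6 and 20.4 CPM in WT PAB. In KO it was at 28.2, 32.0, 22.8 and 23.6 CPM after sham surgery and at 19.4, 18.2, 17.0 and 17.2 CPM after banding. All 8 banded libraries were below all 8 sham libraries, and KO SHAM had the widest spread of the groups. The averaged log2 fold change was -0.42 (SE 0.07, 95% interval -0.57 to -0.26, adjusted p = 0.00593 by edgeR), a level 0.750 times that after sham surgery, called in 24 of 24 alternatives at values of -0.46 to -0.36. Without the 3 sham libraries it was -0.42 (adjusted p = 0.0190).

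**Figure D2:**
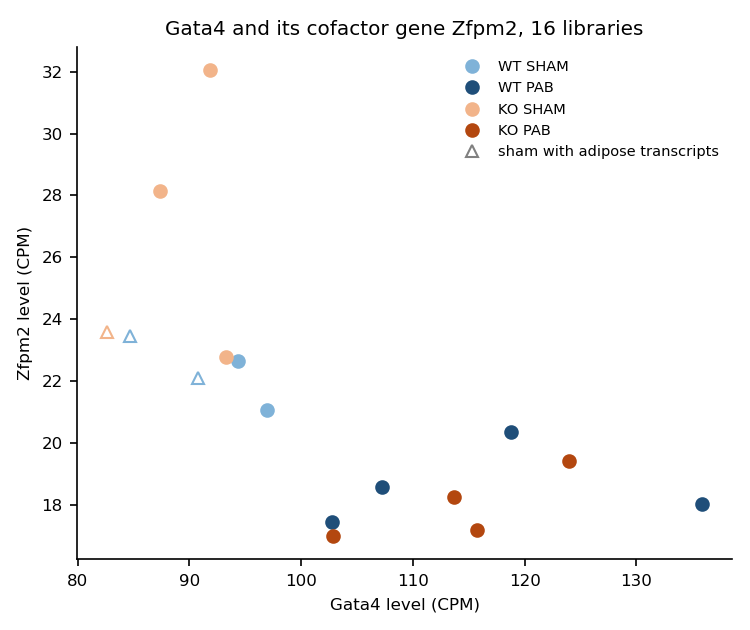
Gata4 level (horizontal axis) against Zfpm2 level (vertical axis), both in CPM with axes that do not start at 0, in the 16 libraries. Sham libraries have less Gata4 and more Zfpm2 than banded libraries, and the 2 surgeries do not overlap on either axis.

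The ratio of Zfpm2 counts to Gata4 counts gives both changes in 1 value per library and is given without a test, because both genes were already tested. In WT it was 0.244 ± 0.0246 (SD, n = 4) after sham surgery and 0.162 ± 0.0195 after banding, and in KO 0.3002 ± 0.0455 and 0.158 ± 0.00712. The lowest sham library was at 0.217 and the highest banded library at 0.173. Gene lengths were not divided out, so the ratio compares libraries and not the amounts of the 2 transcripts.

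Within 1 genotype, banding was tested with 4 libraries against 4. In WT, 0 of the 10 genes passed in edgeR, where 0.00743% of all genes passed. At an unadjusted p below 0.05 there were 5 of 10, against 11.7% of all genes, while DESeq2 called 2 (Rcan1, adjusted p = 0.00799, and Gata4, adjusted p = 0.0362), against 0.803% of all genes, and limma-voom 0. Groups without overlap were found for 4 of the 10 (Rcan1, Gata4 and Mef2c higher, Zfpm2 lower), against 4.93% of all genes (2.6% higher, 2.33% lower). In KO, Zfpm2 alone of the 10 passed in edgeR, where 0.632% of all genes passed (0.513% higher, 0.119% lower): its log2 fold change was -0.57 (SE 0.10, adjusted p = 0.0309), a level 0.675 times that of KO SHAM. An unadjusted p below 0.05 was found for 6 of the 10, against 15.6% of all genes. Groups did not overlap for 5 (Rcan1 and Gata4 higher, Nfatc3, Mef2a and Zfpm2 lower), against 10.2% of all genes (5.86% higher, 4.32% lower).

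The Zfpm2 call in KO was held in 17 of 25 alternatives, with adjusted p between 0.000105 and 0.120. It was lost without any 1 of KO SHAM 1, 2 or 3 or KO PAB 2, 3 or 4, when only the 2 groups were fitted (0.0560), and with the replicate number as a block (0.0791). DESeq2 called 5 of the 10 genes in KO: Rcan1, Nfatc3, Mef2a, Gata4 and Zfpm2, against 3.79% of all genes.

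**Figure D3:**
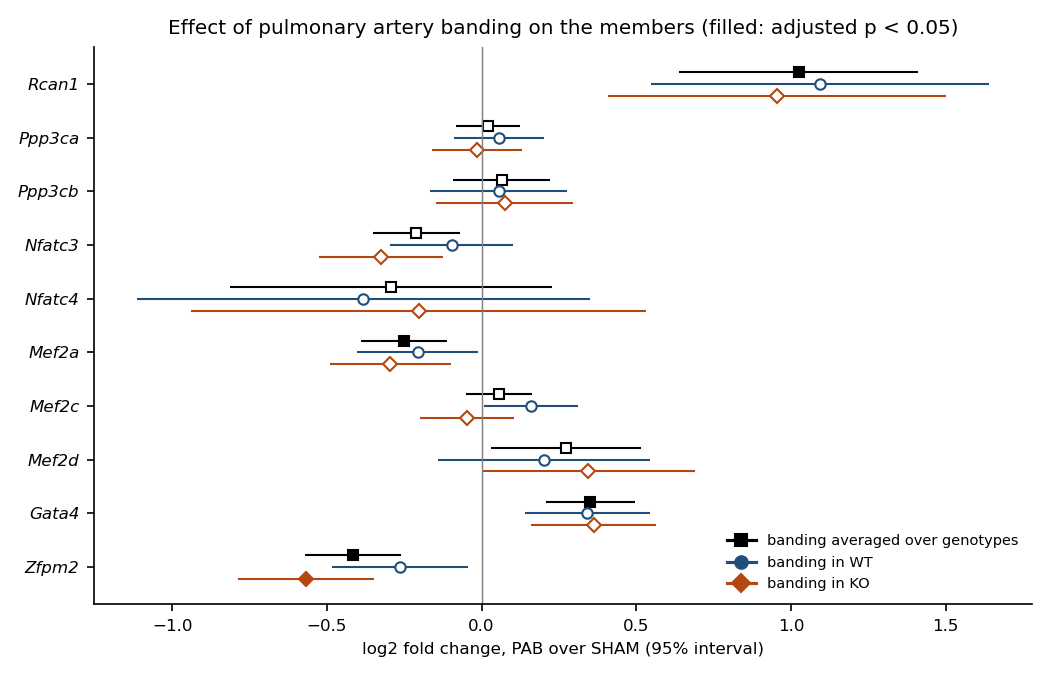
Log2 fold change with banding for each gene in WT, in KO and averaged over both, with 95% intervals from the edgeR fit; the vertical line marks no change. The WT and KO intervals overlap for each of the 10 genes, and the averaged intervals of Rcan1 and Gata4 lie above 0 and those of Zfpm2 and Mef2a below 0. Those of Mef2d and Nfatc3 also leave out 0, though neither passed after adjustment.

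Whether banding acted differently in the 2 genotypes was tested as an interaction, the log2 fold change in KO minus that in WT. None of the 10 genes passed in edgeR, and 0% of all genes did. DESeq2 and limma-voom also called 0 of the 10, and at an unadjusted p below 0.05 there was 1, Zfpm2, against 1.76% of all genes. Its difference was -0.31 (95% interval -0.61 to 0.004, unadjusted p = 0.0484 by edgeR, adjusted p = 0.999). This interval just holds 0 because it uses 12 degrees of freedom, fewer than the test. For Rcan1 the difference was -0.14 (95% interval -0.90 to 0.62), so neither a smaller nor a larger response in KO was detectable within that range. For Gata4 it was 0.02 (95% interval -0.26 to 0.31). Mef2c was at -0.21 (95% interval -0.42 to 0.01) and Nfatc3 at -0.23 (-0.51 to 0.05).

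Genotype itself changed none of the 10 genes past the test, after sham surgery, after banding or averaged over both, with edgeR, DESeq2 or limma-voom. In edgeR, 0.00743% of all genes passed in each of these comparisons. At an unadjusted p below 0.05 there were 2 of 10 after sham surgery (Mef2c, and Zfpm2 at a log2 fold change of 0.26, KO over WT), against 2.03% of all genes. There was 1 after banding (Nfatc3, -0.20), against 4.52%, and 1 averaged (Mef2c, 0.13), against 4.93%. After sham surgery 2 of the 10 had groups without overlap, Mef2c and Ppp3ca (0.13), both higher in KO, against 1.26% of all genes (0.505% higher in KO). After banding there were 0, against 3.31% (1.69% higher, 1.63% lower). Rcan1 was 0.26 higher in KO on the log2 scale (SE 0.18, 95% interval -0.12 to 0.64, adjusted p = 0.991), which did not pass.

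**Figure D4:**
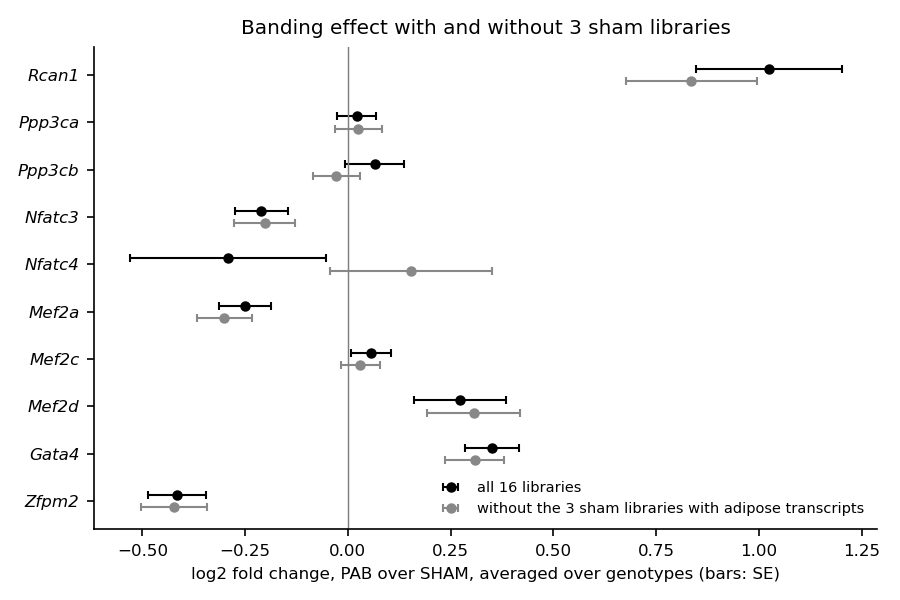
Averaged log2 fold change with banding of each gene with all 16 libraries and without the 3 sham libraries with adipose transcripts; bars are the SE. Rcan1 moves from 1.02 to 0.84, Nfatc4 from -0.29 to 0.15, and Gata4, Zfpm2 and Mef2a keep their direction.

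Other genes of the pathway were counted from 8 lists of 67 genes, of which 62 were tested. These lists were also chosen with earlier results of these data known. With banding averaged over genotypes, 10 rose and 1 fell, against 3.24% and 1.85% of all genes, and 27 were at an unadjusted p below 0.05, against 22.7% of all genes tested. Their median log2 fold change was 0.08, against -0.02 over all genes. In the lists of calcineurin subunits, calcineurin inhibitors and anchors, and calcium entry channels, no gene passed with all 16 libraries. Among calcineurin subunits and calmodulin, 0 of 3 tested passed, with Ppp3cc (the third catalytic subunit) at -0.15 (adjusted p = 0.296). Among inhibitors and anchors of calcineurin, 0 of 9 passed, with Myoz2 (calsarcin-1, which tethers calcineurin at the Z disc) at 0.31 (0.0839) and Akap6 (a scaffold at the nuclear envelope) at 0.25 (0.0949). Among calcium entry channels, 0 of 8 passed, with the T-type channel gene Cacna1g at 1.36 (SE 0.42, adjusted p = 0.0721; 1.93 and 0.0438 without the 3 sham libraries with adipose transcripts, and 0.0441 without KO SHAM 4 alone) and the store-operated channel gene Orai1 at 0.41 (0.157).

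Among the other NFAT genes, 0 of 3 passed, with Nfatc2 at 0.46 (adjusted p = 0.0595, but 0.0289 to 0.0395 without any 1 of WT SHAM 4, WT PAB 4 or KO SHAM 4) and Nfat5, which responds to osmotic stress rather than calcineurin, at -0.19 (0.397). T lymphocyte markers, from cells in which Nfatc2 is abundant, summed to 1.54 to 3.51 CPM in banded and 3.47 to 5.46 CPM in sham libraries, and their part in the Nfatc2 value was not tested. Of 9 genes of NFAT kinases, which return NFAT to the cytoplasm, 2 rose. Dyrk1a went from 43.1 ± 4.35 CPM (SD, n = 4) in WT SHAM and 45.7 ± 2.89 in KO SHAM to 54.8 ± 4.95 in WT PAB and 55.5 ± 7.55 in KO PAB. It rose by 0.31 on the log2 scale (SE 0.07, adjusted p = 0.0245 by edgeR). Mapk8, the stress kinase JNK1, also rose by 0.31 on the log2 scale (SE 0.08, adjusted p = 0.0452). The Dyrk1a call was lost without the 3 sham libraries with adipose transcripts (log2 fold change 0.24, adjusted p = 0.0726). It was also lost with an adipocyte and mesothelial score as covariate (log2 fold change 0.21, adjusted p = 0.0949). Leaving out any 1 of WT SHAM 3, WT PAB 1, KO PAB 2 or KO PAB 4 lost it too (0.0523 to 0.0607). Mapk8 passed in 7 of 24 alternatives, and its call was lost without any 1 of 13 libraries, all but WT SHAM 1, WT SHAM 3 and KO PAB 1 (0.0541 to 0.0981). The Mapk8 call was also lost without the 3 sham libraries with adipose transcripts (log2 fold change 0.28, adjusted p = 0.0807). The same held with an adipocyte and mesothelial score as covariate (0.112), with the replicate block (0.0623) and without the filter on low counts (0.0692).

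Of 12 genes of MEF2 partners, class IIa histone deacetylases and their kinases, Prkd1 fell and none rose with all 16 libraries. Prkd1 encodes protein kinase D1, which phosphorylates those deacetylases and so frees MEF2, and its log2 fold change was -0.39 (SE 0.10, adjusted p = 0.0384 by edgeR). In WT it was at 15.8 ± 2.03 CPM (SD, n = 4) after sham surgery and 13.6 ± 2.93 after banding, and in KO at 16.7 ± 2.44 and 11.3 ± 0.779. Prkd1 passed in 11 of 24 alternatives. Its call was lost without any 1 of 12 libraries, all but WT SHAM 2, WT SHAM 4, WT PAB 4 and KO SHAM 4 (0.0513 to 0.0799). The Prkd1 call was also lost with the replicate block (0.0762). Prkd2, of the same kinase family, was at 0.43 (adjusted p = 0.0667, and 0.0262 without WT SHAM 4). Camk2b, a calcium/calmodulin kinase gene at 0.384 to 4.38 CPM that was named after its values were seen, was at 0.91 (0.249) with all libraries and passed without the 3 sham libraries with adipose transcripts, at 2.15 (SE 0.35, adjusted p = 0.0125), where 7% of all genes passed.

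Of 10 genes of GATA factors and cardiac partners, Myocd and Hopx rose. Myocd encodes myocardin, a coactivator of serum response factor, and went from 34.2 ± 2.36 CPM in WT SHAM and 33.5 ± 6.13 in KO SHAM to 47.7 ± 6.97 in WT PAB and 45.7 ± 7.36 in KO PAB. Its log2 fold change was 0.47 (SE 0.10, adjusted p = 0.0167 by edgeR), called in 24 of 24 alternatives. Hopx, which binds serum response factor and has no DNA binding of its own, was at 0.93 (SE 0.25, adjusted p = 0.0454), but it passed in 8 of 24 alternatives and not without the 3 sham libraries (0.73, adjusted p = 0.125). Its call was lost without any 1 of 12 libraries, all but WT SHAM 4, WT PAB 2, WT PAB 3 and KO SHAM 2 (0.0577 to 0.0946). The Hopx call was also lost with the adipocyte and mesothelial covariate (0.160), with the replicate block (0.0914) and without the filter on low counts (0.0703). Tbx20 and Gata6, also named after their values were seen, passed without the 3 sham libraries and not with all 16. Tbx20 was then at 0.46 (adjusted p = 0.0312), against 0.31 (0.118), and Gata6 at -0.34 (0.0305), against -0.17 (0.480).

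Among described targets of the pathway, 6 of 8 rose, with a median log2 fold change of 1.64 over the list, the highest of the 8 lists. Nppa, the atrial natriuretic peptide gene, rose by 5.46 on the log2 scale (SE 0.66, adjusted p = 0.00176 by edgeR), and Acta1 (skeletal alpha-actin) rose by 2.70 (SE 0.33, adjusted p = 0.00176). Nppb, Myh7, Xirp2 and Ankrd1 rose by 2.13, 1.68, 1.60 and 1.26, with adjusted p of 0.0312, 0.00599, 0.00382 and 0.00176. Nppb did not pass without the 3 sham libraries (0.0698), with the replicate block (0.0559) or without the filter on low counts (0.0570). Nor did it pass without any 1 of WT SHAM 1, 2 or 3, WT PAB 1, KO SHAM 1 or 3, or KO PAB 4 (0.0507 to 0.0738). Xirp1 was at 0.09 and Nr4a1, an early response gene, at -0.29, and neither passed. Many of these genes also respond to other load-sensitive pathways, and this list was chosen with earlier results of these libraries known.

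**Figure D5:**
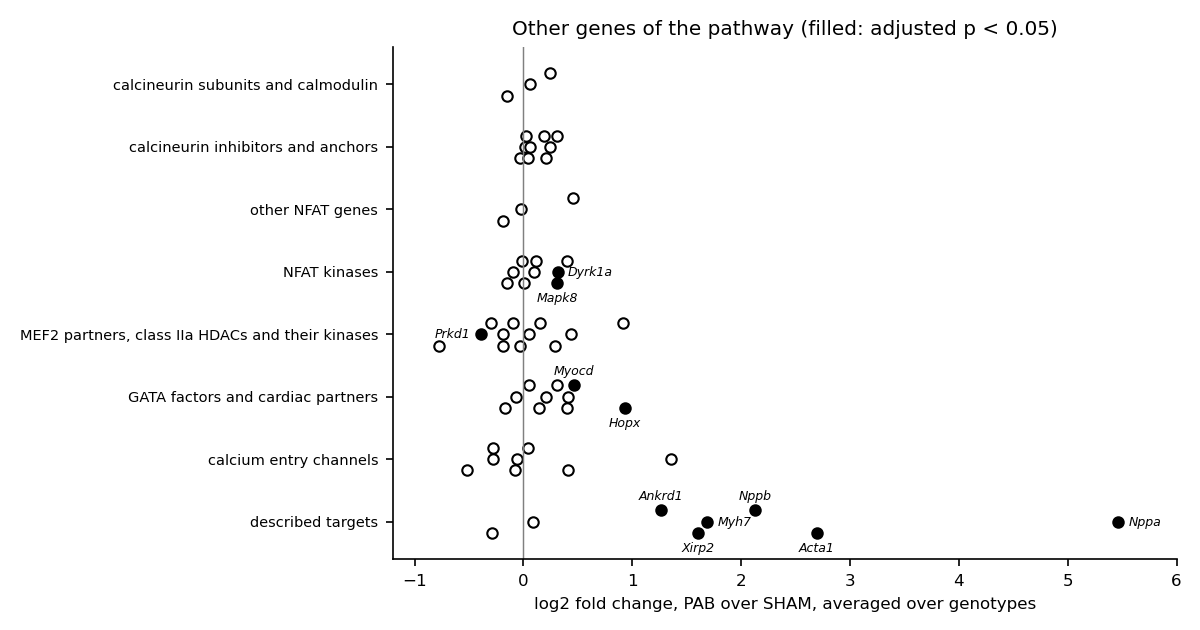
Log2 fold change with banding, averaged over genotypes, of the 62 other pathway genes tested, by list; filled points passed the test. The 11 filled points are 6 described targets, 2 NFAT kinase genes, 2 GATA partner genes and Prkd1, the only filled point below 0.

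Within KO, 4 of the 62 passed, all described targets and all higher: Nppa (log2 fold change 6.99), Acta1 (2.95), Xirp2 (1.84) and Ankrd1 (1.36). Over all genes 0.632% passed in KO, 0.513% higher. Without the 3 sham libraries 8 passed in KO, where 2.53% of all genes did: Nppa, Acta1, Xirp2, Ankrd1, Cib1 (0.62) and Camk2b (2.27) higher, and Prkd1 (-0.64) and Mamstr (-1.31) lower. Cib1 and Mamstr were also named after their values were seen. Within WT, for genotype and for the interaction, edgeR called 0 of the 62. In WT 15 of the 62 were at an unadjusted p below 0.05, against 11.7% of all genes, and DESeq2 called 5, against 0.803%.

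Among the genes whose levels followed Rcan1 most closely over the 16 libraries were Myl12a (a regulatory light chain of nonmuscle myosin), Arpc5l (a subunit of the Arp2/3 complex), Chchd4 (a mitochondrial import factor) and Ppp2ca (the catalytic subunit of protein phosphatase 2A). Pearson's r of log2(CPM + 1) was 0.955, 0.940, 0.933 and 0.933, among 10895 genes compared. The most opposite were Snx33 (-0.910), Gpm6a (-0.906) and Abca8a (-0.892). Without the 3 sham libraries with adipose transcripts these r were 0.913, 0.867, 0.905 and 0.878, and -0.908, -0.812 and -0.783. The libraries share surgery, depth and tissue makeup, so these values describe likeness and are given with no p.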

How the data were processed

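Per the labels, libraries were made with TruSeq Stranded mRNA. The deposited values are expected counts, 1 whole number per gene symbol and library, and the authors used STAR 2.5.3a, RSEM 1.3.0 and Rnor_6.0, per the submitters' processing notes. The annotation, the strand setting and the rounding are not given in the sources used here. Transcripts of overlapping genes or of other isoforms were not separated.

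The members and gene lists were chosen with earlier results of these data known. Genes were fitted in R 4.3.3 with edgeR 4.0.16: TMM scaling, filterByExpr (min.count 10, which left 13458 genes) and a robust quasi-likelihood model of the 4 group means over 16 libraries. P-values were adjusted by Benjamini-Hochberg over all genes tested in each comparison, with a threshold of 0.05. SE is the log2 fold change over the square root of F, and 95% intervals use 12 degrees of freedom. All 10 genes are named; other genes are those that passed in any comparison, and up to 2 per list with the smallest unadjusted p. Some genes that this rule names are not reported here. Alternatives were RLE scaling, limma-voom (limma 3.58.1), DESeq2 1.42.0, no filter on low counts, a filter of 1 CPM in 4 libraries, only the groups compared, the replicate block, 3 sham libraries left out, an adipocyte and mesothelial score as covariate, and each library left out. The procedure was tested on simulated data. Of genes set to change 1.5-fold, 49.3% were recovered for banding averaged over genotypes, 19.4% in WT and 26.9% in KO. Of those set to change 2-fold, 74.6%, 64.2% and 65.7% were recovered. A gene that did not pass may therefore still have changed. Depth was 22168110 to 34718633 counts per library. No 2 libraries held identical values.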

Additional observations from a re-analysis of the deposited data

How the results depend on the processing

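In banding averaged over genotypes the 4 calls became 3 without the filter on low counts, 5 with DESeq2 and 3 to 4 with any 1 library left out. Over all genes tested, DESeq2 called 9.94% in this comparison and edgeR 5.09%. With any 1 library left out, 356 to 964 of all genes passed. Rcan1, Gata4 and Zfpm2 passed in all 24 alternatives. Of the 10 genes, Ppp3cb and Nfatc4 changed sign in 2 alternatives each. In WT DESeq2 called 2 genes where edgeR called 0, against 0.803% and 0.00743% of all genes. In KO the single call became 5 with DESeq2 and 3 with a covariate for adipocyte and mesothelial transcripts (Mef2a, Gata4 and Zfpm2). It became 0 with the replicate block, 0 with only the groups compared and 0 to 2 with any 1 library left out. Over all genes, DESeq2 called 3.79% in KO and edgeR 0.632%. With any 1 library left out, 0 to 275 of all genes passed in KO. Of the 62 other pathway genes, the 11 averaged calls became 18 with DESeq2, 7 with the replicate block and 6 to 13 with any 1 library left out. The 4 in KO became 9, 0 and 0 to 6, with 8 without the 3 sham libraries and 10 with the covariate. Without the 3 sham libraries 2.53% of all genes passed in KO. The values over all genes given above for DESeq2 and for 1 library left out apply to these counts too. Shares of all genes with the covariate, the replicate block, no filter or only the groups compared are not given here. The cause of these differences was not tested.

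Replicate numbers did not pair the libraries: residuals of same-numbered libraries correlated between -0.621 and 0.562, and 3 of 16 libraries correlated best with their own number. With the replicate block 4 genes passed in banding averaged over genotypes, with Nfatc3 in (adjusted p = 0.0469) and Mef2a out (0.0689). With 4 libraries a group, intervals of the interaction were wide (for Rcan1, -0.90 to 0.62).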
